A study of Drosophila melanogaster with 9 samples.

Results

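The genes described here are the phagocytosis receptor genes eater and drpr and the class C scavenger receptor genes, whose symbols start with Sr-C. They were chosen by gene symbol in the array's annotation, which gave 5 genes with 1 probe set each (eater, drpr, Sr-CI, Sr-CII and Sr-CIV), out of 11573 genes and 17899 probe sets in all. RefSeq's gene table (Release 6 plus ISO1 MT) puts eater on chromosome arm 3R, drpr on 3L, Sr-CI and Sr-CIV on 2L and Sr-CII on 2R. Sr-CIII, the neighbour of Sr-CI on 2L, was without a singly named probe set and was not analysed here. Transcript levels were measured in Drosophila melanogaster S2 cells, a cultured line with properties of hemocytes (insect blood cells), with Affymetrix expression arrays for the fly genome, 9 in all, 3 for each of 3 groups. The NELF dsRNA group had received double-stranded RNA against NELF-B and NELF-E, subunits of the negative elongation factor, for 72 h. The LacZ dsRNA group had received double-stranded RNA against the bacterial beta-galactosidase gene for the same time, as a mock treatment, and the third group was untreated. All groups grew in Shields and Sang medium with 10% fetal bovine serum. The comparisons ask which messenger RNAs depend on NELF, with LacZ dsRNA standing for dsRNA addition as such.

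Eater is a surface receptor of the Nimrod family, built of EGF-like repeats, through which hemocytes bind and engulf bacteria. Draper, the product of drpr, is the fly counterpart of the nematode engulfment receptor CED-1 and serves in the clearance of dying cells by hemocytes and of neuronal debris by glia. Class C scavenger receptors bind polyanionic ligands and bacterial surfaces, and Sr-CI and Eater are both known to take part in the uptake of dsRNA by S2 cells. NELF holds RNA polymerase II just downstream of promoters, so that its loss can lower or raise the output of a gene.

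Each value is a log2 intensity of 1 probe set on 1 array. A probe set counts as detected above 3.77 on that scale, the 95th percentile of the values of 95 control probe sets. The number of detected probe sets was 8010 on the lowest array and 8059 on the highest. Some cells of the deposited table are empty, 21.2% over all probe sets, and were kept as missing. NELF dsRNA array 3 had the fewest measured probe sets (13854), followed by LacZ dsRNA array 1 (13935). The targeted genes were lower after NELF dsRNA: NELF-B 6.92-fold (log2 change -2.79) and Nelf-E at least 15.8-fold against LacZ dsRNA (limma adjusted p = 2.97e-08 and 8.93e-08), the bound setting the NELF dsRNA mean, of which 1 of 3 arrays was detected, at the detection limit. Among measured hemocyte markers, the GATA factor gene srp, the peroxidase gene Pxn and the scavenger receptor gene crq were detected on all 9 arrays. So were Col4a1 and vkg, at fainter means of 5.07 and 5.15. Hml, with a mean of 4.35, was below the limit on untreated array 2, at 3.03. The plasmatocyte receptor gene NimC1 stayed below the limit on every array. He had means below it after NELF dsRNA (2.90) and in untreated cells (3.65), and above it after LacZ dsRNA (3.99). Of 3 muscle and 3 fat body marker genes none had a group mean above the limit, and of 2 neuronal genes elav was above it on all 9 arrays. Of 3 germline genes only vas had a group mean above the limit, after NELF dsRNA (3.84) and in untreated cells (3.98). Of 3 crystal cell genes only PPO2 had a group mean above it, and lz was below it on every array that measured it. Of 5 lamellocyte genes, PPO3, mys and cher were above it on all 9 arrays and ItgaPS4 on 8, while atilla was below it wherever measured. The integrin gene ItgaPS4 was lower after NELF dsRNA than after LacZ dsRNA (log2 change -1.64, limma adjusted p = 0.013) and than in untreated cells (-1.55, adjusted p = 0.016). The filamin gene cher was higher after NELF dsRNA than after LacZ dsRNA (0.38, adjusted p = 0.043), and its change of 0.32 against untreated cells did not pass (adjusted p = 0.074). The summed linear intensity of the lamellocyte list was 3249 to 3523 on NELF dsRNA arrays, 2951 to 3608 on LacZ dsRNA arrays and 3336 to 3495 on untreated arrays. That of the crystal cell list was 19.6 to 31.4 on NELF dsRNA arrays, 30.6 to 48.6 on LacZ dsRNA arrays and 29.0 to 50.6 on untreated arrays. The summed linear intensity of 8 hemocyte marker genes was 1992 to 2195 on NELF dsRNA arrays, 1802 to 1960 on LacZ dsRNA arrays and 1698 to 1787 on untreated arrays. Within that list Pxn was higher by 0.88 on the log2 scale after NELF dsRNA than after LacZ dsRNA (limma adjusted p = 0.00013), and its change of 0.29 against untreated cells did not pass (adjusted p = 0.18). Linear sums follow chiefly the brightest genes of a list. In the lamellocyte list these were mys and cher (log2 means 11.34 and 9.41 over all arrays), so the sum hardly reflects ItgaPS4 (4.87). The part of these markers in the receptor results was not tested. The labels do not say whether the arrays of a group stand for separate cultures. The p-values therefore describe only the scatter among these arrays, possibly a technical one, and the small number of arrays limits the precision.

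Of the 5 genes, drpr was detected on all 9 arrays and eater on 8, and both were lower after NELF dsRNA. The mean of eater after NELF dsRNA, 3.90, lay just above the detection limit. The 3 class C scavenger receptor genes lay at or below the level of the control probe sets. Against LacZ dsRNA, 2 of the 4 genes that could be tested fell and none rose, where 2.71% of all 12975 probe sets tested fell. Against untreated cells 2 of 3 tested genes fell, where 3.53% of 12973 probe sets fell. The NELF dsRNA arrays are shared by both comparisons. The test was limma's moderated test over all probe sets with Benjamini-Hochberg adjustment, at a threshold of 0.05.

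**Figure D1:**
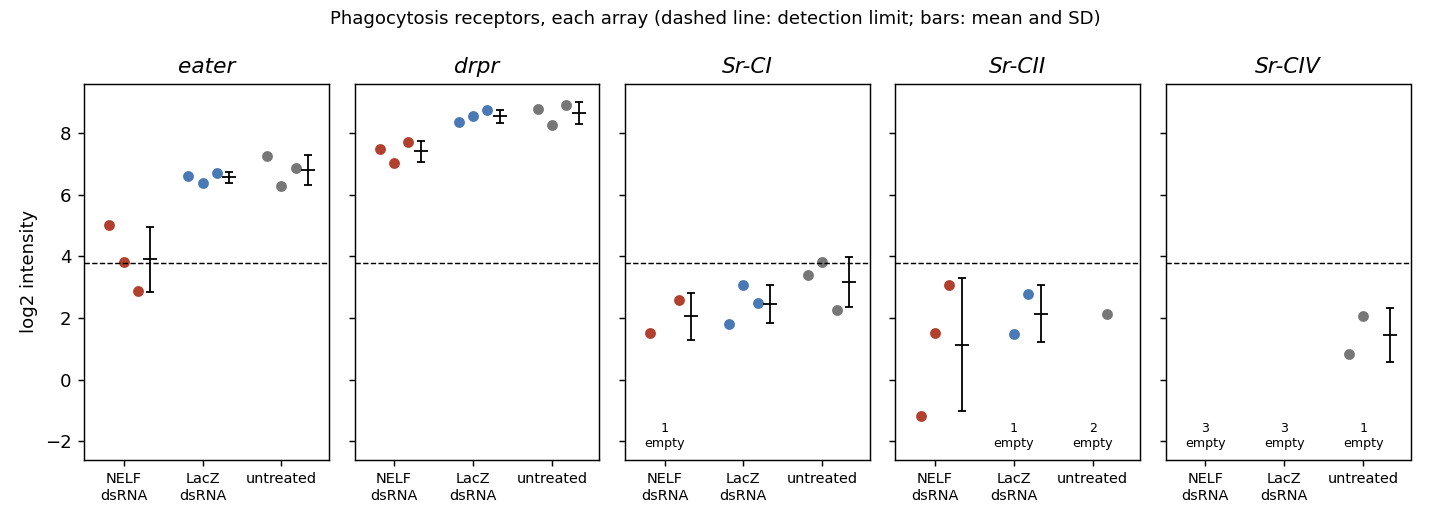
Log2 intensity of the 5 receptor genes on each array (vertical axis), by group (horizontal axis), with the group mean and SD as bars, the detection limit of 3.77 as a dashed line and empty cells counted at the foot. eater and drpr are lower on all 3 NELF dsRNA arrays than on any of the 6 others, while the Sr-C genes lie below the limit on all arrays but 1. The share of all probe sets that separate so was not counted.

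The receptor gene eater gave 5.01, 3.80 and 2.89 on NELF dsRNA arrays 1, 2 and 3. It gave 6.60, 6.36 and 6.71 on the LacZ dsRNA arrays and 7.27, 6.29 and 6.86 on the untreated ones. All 3 NELF dsRNA arrays were below all 6 others, and the highest of them lay 1.28 under the lowest control array. How many of all probe sets separate in this way was not counted. The same holds for every other gene described below, so separation alone is not read as a result. The third NELF dsRNA array fell below the detection limit, and the second lay just above it. The spread among NELF dsRNA arrays was wide, over a range of 2.13 log2 units, against 0.34 among LacZ dsRNA arrays and 0.97 among untreated ones.

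By group means eater was at 3.90 ± 1.07 after NELF dsRNA and 6.56 ± 0.18 after LacZ dsRNA (SD, n = 3 arrays each), a 6.31-fold fall (log2 change -2.66, SE 0.40, limma adjusted p = 0.00069). Untreated cells had 6.81 ± 0.49 (SD, n = 3), so that eater fell 7.51-fold against them (log2 change -2.91, SE 0.40, limma adjusted p = 0.00024). Among probe sets that fell against LacZ dsRNA and had a mean above the detection limit, 347 in all, this was the 6th largest fall, and against untreated cells the 7th of 452. Among all probe sets tested, dim ones and those not passing included, its change ranked 96th from the lowest against LacZ dsRNA and 68th against untreated cells. With the third NELF dsRNA array, the one with the fewest measured probe sets, left out, the log2 change was -2.15 against LacZ dsRNA and -2.40 against untreated cells, and both passed. With values below the detection limit set to that limit, the changes were -2.36 and -2.61. The call against LacZ dsRNA was lost without the mean-variance trend (limma adjusted p = 0.064) and with empty cells and values under the 10th percentile of all values set to that percentile (adjusted p = 0.054), while that against untreated cells held in both (adjusted p = 0.037 and 0.030). In a bulk sample, fewer cells that express a gene and less RNA per cell cannot be told apart.

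The engulfment receptor gene drpr was detected on every array. It gave 7.46, 7.03 and 7.71 on the NELF dsRNA arrays. The LacZ dsRNA arrays gave 8.34, 8.54 and 8.76, and the untreated ones 8.79, 8.25 and 8.90. Here too the NELF dsRNA arrays did not overlap with the other groups, the gap to the lowest control array being 0.55, and the lowest value came from array 2, not from array 3 as for eater. The share of all probe sets without such overlap was not counted. The drpr probe set carries the suffix that Affymetrix gave to sets shared by transcripts of 1 gene, and RefSeq lists 6 transcripts of drpr, so isoforms were not told apart.

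The group means of drpr were 7.40 ± 0.34 after NELF dsRNA, 8.55 ± 0.21 after LacZ dsRNA and 8.65 ± 0.34 in untreated cells (SD, n = 3 each). drpr fell 2.22-fold against LacZ dsRNA (log2 change -1.15, SE 0.18, limma adjusted p = 0.00092) and 2.37-fold against untreated cells (log2 change -1.25, SE 0.18, limma adjusted p = 0.00034). Among probe sets that fell and had a mean above the detection limit, these falls ranked 113th of 347 and 126th of 452. Without the mean-variance trend the first call was lost (adjusted p = 0.078), as it was with empty cells filled in (0.061) or with values below the detection limit set to it (0.061), while the second held in all 3 (0.046, 0.035 and 0.037). Glia are another site of drpr. Of 4 glial marker genes, the glial regulator gene repo had a mean below the detection limit in every group and was above it on 1 untreated array, at 3.78. Another, alrm, was below the limit wherever measured. The gene moody, a receptor gene of the blood-brain barrier, was lower after NELF dsRNA (8.71 ± 0.08) than after LacZ dsRNA (9.33 ± 0.07; SD, n = 3 each; log2 change -0.62, limma adjusted p = 9.05e-05). The sodium pump subunit gene nrv2, also detected on all 9 arrays, averaged 8.72 ± 0.09 after NELF dsRNA, 8.45 ± 0.18 after LacZ dsRNA and 8.50 ± 0.30 in untreated cells (SD, n = 3 each), and its log2 changes of 0.27 and 0.22 did not pass (limma adjusted p = 0.35 and 0.42). The summed linear intensity of the glial list was 798 to 898 on NELF dsRNA arrays, 935 to 1046 on LacZ dsRNA arrays and 875 to 1077 on untreated arrays. The part of this list in the change of drpr was not tested.

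With the LacZ dsRNA and untreated arrays pooled as 6 controls for the 3 NELF dsRNA arrays, the log2 mean of eater was lower by 2.78 (6.89-fold) and that of drpr by 1.20 (2.29-fold). Probe sets differ in brightness for other reasons than abundance, so only the change of the difference between eater and drpr is read here. The difference between the log2 values of eater and drpr on an array was -2.45, -3.23 and -4.82 on the NELF dsRNA arrays, and lay between -2.18 and -1.52 on the 6 control arrays, without overlap. Its mean was lower by 1.59 on the log2 scale after NELF dsRNA. The -4.82 rests on an eater value of 2.89, below the detection limit, and the -3.23 on 3.80, just above it. The -2.45 lay 0.28 under the lowest control array. These pooled comparisons were chosen after the separation of the arrays had been seen, so they are a description and no p is given.

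**Figure D2:**
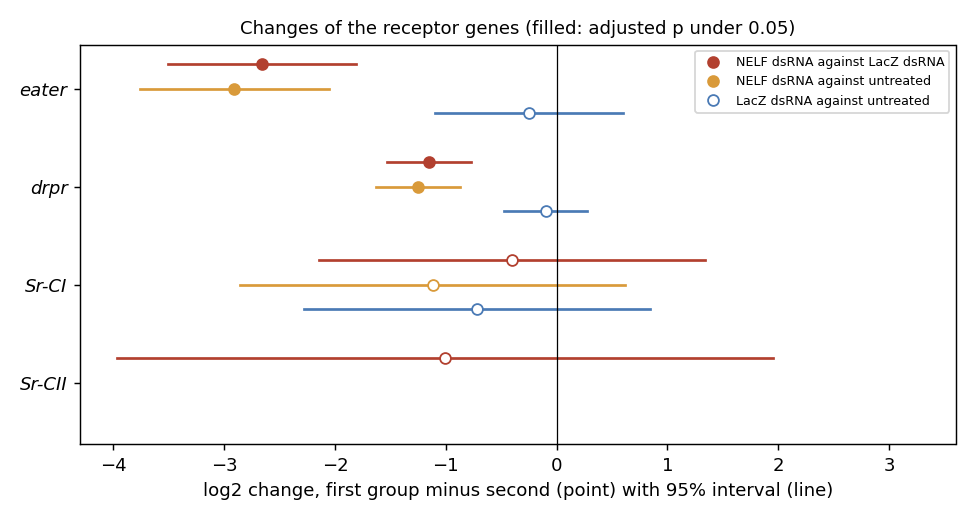
Log2 change (horizontal axis, first group minus second) of each receptor gene that could be tested, in each of the 3 comparisons, with its 95% interval as a line. The intervals of eater and drpr lie below 0 in both NELF dsRNA comparisons, and every interval of Sr-CI and Sr-CII spans 0.

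LacZ dsRNA as such moved neither gene past the threshold. None of the 3 genes tested between LacZ dsRNA and untreated cells passed limma's test, nor did any have an unadjusted p under 0.05, and 0.054% of all 12974 probe sets passed there. The log2 change of eater was -0.25 with a 95% interval of -1.10 to 0.60, and that of drpr -0.10 with an interval of -0.48 to 0.28. Both groups overlapped for both genes. For these genes the order of the group means was NELF dsRNA, LacZ dsRNA, untreated, and the upper 2 neighbours in it did not differ beyond their spread.

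The class C scavenger receptor genes were near or below detection. Sr-CI, a receptor for bacteria, was measured on 2 NELF dsRNA arrays, at 1.5 and 2.59, with an empty cell on array 2. The LacZ dsRNA arrays gave 1.82, 3.06 and 2.47, and the untreated ones 3.41, 3.83 and 2.27. Of these 8 values only the second untreated array, at 3.83, was above the detection limit, and all groups overlapped. The fitted log2 change was -0.40 against LacZ dsRNA (95% interval -2.14 to 1.34, limma adjusted p = 0.88) and -1.12 against untreated cells (interval -2.86 to 0.62, adjusted p = 0.55). Between LacZ dsRNA and untreated cells it was -0.72 (interval -2.28 to 0.84, adjusted p = 0.79). Such wide intervals hold changes as large as that of drpr, and at this brightness a change of that size was not detectable.

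Sr-CII, a relative of Sr-CI on arm 2R, gave -1.18, 1.52 and 3.06 on the NELF dsRNA arrays. It gave 1.49 and 2.79 on LacZ dsRNA arrays 2 and 3 and 2.14 on untreated array 3, with the other 3 cells empty. No value was above the detection limit, the groups overlapped, and only the comparison with LacZ dsRNA had enough values for a test (fitted log2 change -1.01, 95% interval -3.97 to 1.95, limma adjusted p = 0.81). Sr-CIV had values on 2 untreated arrays alone, 0.82 and 2.06, both below the limit, with 7 empty cells, and was tested nowhere.

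Other receptors for phagocytosis were read from lists of genes named for their role, 1 probe set a gene. Over all 9036 genes tested against LacZ dsRNA, 5.25% passed in either direction and the median log2 change was 0.00, and over 9029 genes tested against untreated cells 7.09% passed. In the Nimrod family, to which Eater belongs, 10 genes had a probe set, 4 could be tested against LacZ dsRNA, 1 fell and none rose. That gene was NimC4, also called simu, a receptor for dying cells that acts ahead of Draper, and it was the only tested one with a mean above the detection limit. The list's median, 0.70 against LacZ dsRNA and 0.73 against untreated cells, was opposite in sign to the change of NimC4 and came from genes below that limit. NimC4 gave 5.88, 5.32 and 5.52 on the NELF dsRNA arrays. The LacZ dsRNA arrays gave 7.13, 6.31 and 6.26, and the untreated ones 6.97, 6.75 and 6.50, so the NELF dsRNA arrays lay below all others. It fell 1.99-fold against LacZ dsRNA (log2 change -0.99, SE 0.23, limma adjusted p = 0.021) and 2.24-fold against untreated cells (log2 change -1.17, adjusted p = 0.0056). The first call was lost without LacZ dsRNA array 1 (adjusted p = 0.064), NELF dsRNA array 2 (0.099) or NELF dsRNA array 3 (0.063), and without the mean-variance trend both were lost (0.17 and 0.089). Both were also lost with values below the detection limit set to it (0.15 and 0.081) and with empty cells filled in (0.15 and 0.077).

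Of 4 tested genes among other recognition proteins 1 fell, Itgbn, an integrin beta subunit used in the engulfment of bacteria and dying cells. Over all genes tested against LacZ dsRNA 5.25% passed in either direction. Of 11 listed genes 5 had a probe set. PGRP-LC, PGRP-SA, PGRP-SC1a, Tep1, Tep2 and Mcr were without a singly named one and were not examined. Itgbn gave 4.78, 3.76 and 4.33 on the NELF dsRNA arrays, the second being below the detection limit. The LacZ dsRNA arrays gave 5.81, 5.76 and 5.83, and the untreated ones 6.23, 5.27 and 5.97, again with no overlap. It fell 2.85-fold (log2 change -1.51, SE 0.30, limma adjusted p = 0.0062), and 2.89-fold against untreated cells (adjusted p = 0.0048), with both calls lost without the mean-variance trend (0.079 and 0.059), with values set to the detection limit (0.067 and 0.053) and with empty cells filled in (0.074 and 0.058). Its partner in the engulfment of bacteria, the integrin alpha subunit gene scb, named here after its values were seen, had a mean of 2.86 ± 1.18 after NELF dsRNA and 4.16 ± 0.42 after LacZ dsRNA (SD, n = 3 each) and did not pass (limma adjusted p = 0.29). The list's median log2 change was -0.73 against LacZ dsRNA and -0.80 against untreated cells, where Itgbn was again the 1 of 4 that fell. Named after their values were seen, the immunoglobulin receptor gene Dscam1 and the complement-like gene Tep4 changed by -0.17 and -0.09 against LacZ dsRNA and did not pass (adjusted p = 0.28 and 0.69).

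**Figure D3:**
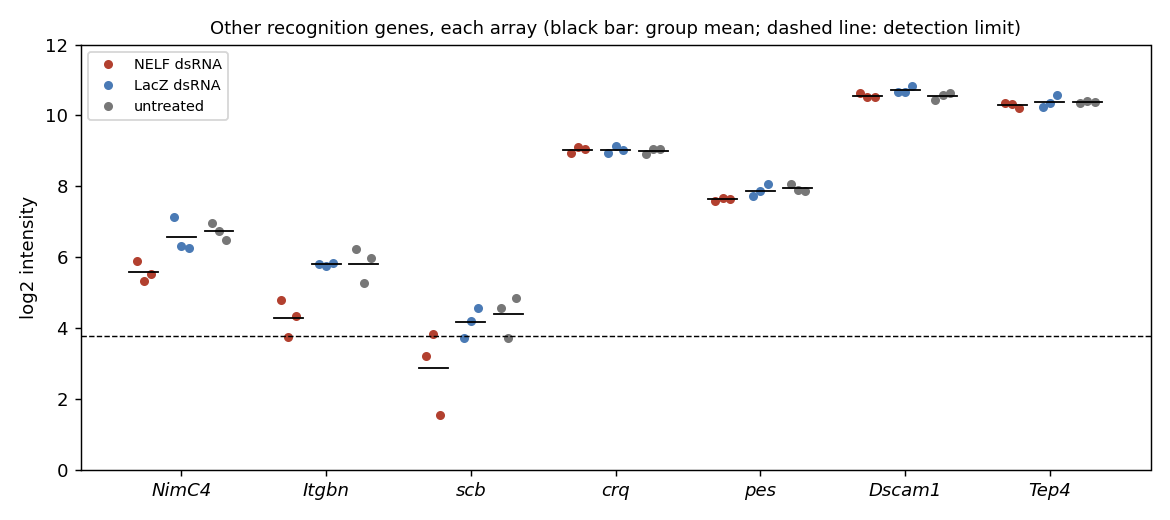
Log2 intensity (vertical axis) of 7 other recognition genes on each array, coloured by group, with group means as black bars and the detection limit of 3.77 dashed. NimC4, Itgbn and pes, of which pes did not pass, are lower on the 3 NELF dsRNA arrays than on the 6 others. How many of all probe sets do so was not counted. crq overlaps between NELF dsRNA and both control groups.

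Class B scavenger receptors had no gene past the threshold among 5 tested against LacZ dsRNA or 4 against untreated cells, with 2 at an unadjusted p under 0.05 in each, and medians of -0.25 and -0.14 (limma). Of 9 listed genes 6 had a probe set, and Snmp1, dsb and Sr-B were without a singly named one. The receptor gene crq (croquemort), which serves in the removal of dying cells, averaged 9.03 ± 0.09 after NELF dsRNA and 9.04 ± 0.10 after LacZ dsRNA (SD, n = 3 each; log2 change -0.01, SE 0.08, limma adjusted p = 0.99). Untreated cells had 9.01 ± 0.07 (SD, n = 3). The receptor gene pes, known for the uptake of mycobacteria, averaged 7.63 ± 0.03 after NELF dsRNA, 7.88 ± 0.17 after LacZ dsRNA and 7.94 ± 0.10 in untreated cells, and did not pass (adjusted p = 0.27 and 0.11). Its NELF dsRNA arrays nevertheless lay below all others, the highest at 7.66 and the lowest control array at 7.72.

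Draper signals through adaptors and kinases inside the cell. Of 16 tested genes of the Draper pathway 1 fell against LacZ dsRNA and none passed against untreated cells, where 4 had an unadjusted p under 0.05. Over all genes tested, 5.25% and 7.09% passed in either direction, so this count is not read as a result about the list. Of 22 listed genes 16 had a probe set. Src42A, Src64B, mbc, Rac1, Rac2 and Cdc42 were without a singly named one and were not examined. The one that fell was dos, a docking protein, by 0.28 on the log2 scale (SE 0.06, limma adjusted p = 0.0069), with 10.38 ± 0.02 after NELF dsRNA and 10.66 ± 0.02 after LacZ dsRNA (SD, n = 3 each). That call was lost without the mean-variance trend (adjusted p = 0.12), and its change against untreated cells, -0.16, did not pass (adjusted p = 0.11). The comparison with untreated cells passed with values below the detection limit set to it (0.016) and with empty cells filled in (0.028). Named for their roles after the values were seen, the ligand gene prtp changed by 0.02, the adaptor gene ced-6 by 0.13 and the kinase gene Shark by -0.22 against LacZ dsRNA, none of which passed (adjusted p = 0.94, 0.49 and 0.44). The median of the 16 was -0.02 against LacZ dsRNA and 0.03 against untreated cells.

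Of 16 tested genes of the actin machinery 1 fell against LacZ dsRNA and 2 fell against untreated cells, with medians of -0.06 and -0.09. Over all genes tested, 5.25% and 7.09% passed in either direction, so these counts are not read as a result about the list. Of 20 listed genes 16 had a probe set. Arp2, Arp3, HSPC300 and WASp were without a singly named one and were not examined. Vrp1 encodes verprolin, a partner of WASp in actin assembly. It gave 8.82, 8.54 and 8.81 on the NELF dsRNA arrays. The LacZ dsRNA arrays gave 9.19, 9.31 and 9.48, and the untreated ones 9.36, 9.26 and 9.30, with no overlap. It fell 1.52-fold (log2 change -0.60, SE 0.09, limma adjusted p = 0.00081) and by 0.59 on the log2 scale against untreated cells (adjusted p = 0.00083), the first call being lost without the mean-variance trend (adjusted p = 0.058). The capping protein gene cpb fell by 0.25 on the log2 scale against untreated cells (limma adjusted p = 0.017), and its change of -0.10 against LacZ dsRNA did not pass (adjusted p = 0.46). That call of cpb was lost without NELF dsRNA array 3, untreated array 1 or untreated array 3 (adjusted p between 0.066 and 0.076) and without the mean-variance trend (0.17).

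None of 12 tested genes of phagosome maturation passed in either NELF dsRNA comparison (limma), with 1 at an unadjusted p under 0.05 against LacZ dsRNA and 3 against untreated cells, and medians of -0.05 and -0.13. Rab5 and Rab7 were on the list but without a singly named probe set, so they were not examined. The lysosomal membrane gene Lamp1 averaged 12.35 ± 0.05 after NELF dsRNA and 12.47 ± 0.12 after LacZ dsRNA (SD, n = 3 each), and the lysosomal GTPase gene Arl8 10.06 ± 0.03 and 10.15 ± 0.09 in the same groups. Against untreated cells their changes were -0.21 each and did not pass (adjusted p = 0.077 and 0.12).

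**Figure D4:**
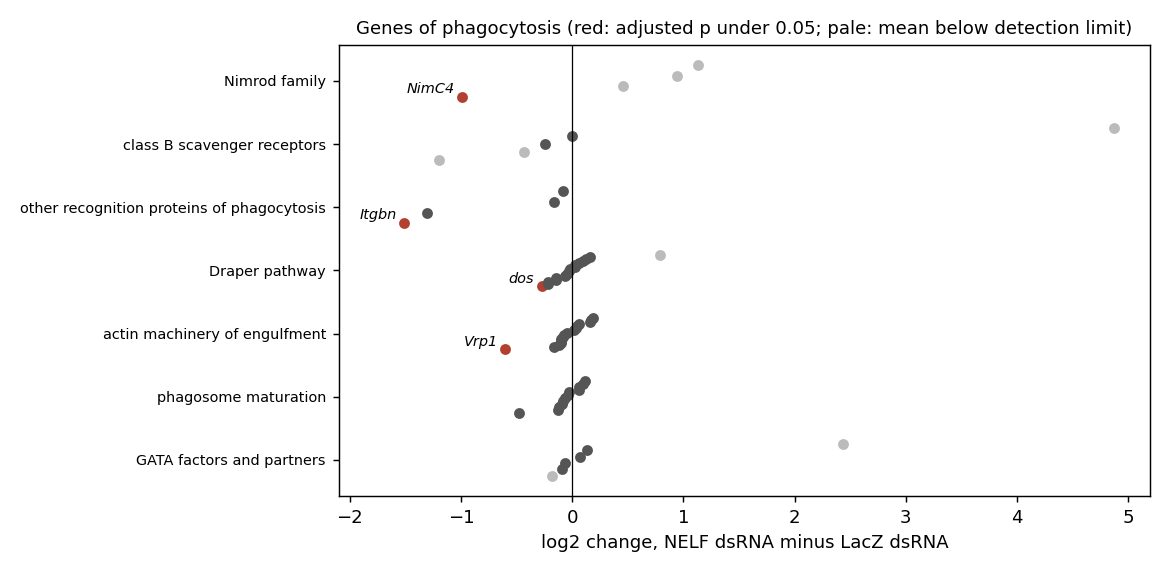
Log2 change of NELF dsRNA against LacZ dsRNA (horizontal axis) of each tested gene in 7 lists (vertical axis), in red where the adjusted p was under 0.05 and pale where the mean lay below the detection limit. NimC4, Itgbn, dos and Vrp1 passed, all lower, and the largest positive values belong to genes below the limit.

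GATA factors regulate many hemocyte genes, and Serpent, the product of srp, is needed for eater expression in fly hemocytes. Of 6 tested GATA factors and partners none passed against LacZ dsRNA (limma), none had an unadjusted p under 0.05, and 1 rose against untreated cells, with medians of 0.01 and 0.13. Over all genes tested against untreated cells 7.09% passed in either direction. srp averaged 10.09 ± 0.22 after NELF dsRNA, 10.02 ± 0.05 after LacZ dsRNA and 9.74 ± 0.08 in untreated cells (SD, n = 3 each). Its rise of 0.34 on the log2 scale against untreated cells (SE 0.09, limma adjusted p = 0.036) was lost without any 1 of 5 arrays: NELF dsRNA arrays 1 and 3, LacZ dsRNA array 2, and untreated arrays 1 and 2. In all it was lost under 10 of 19 alternatives, among them the fit without the mean-variance trend (adjusted p = 0.23).

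Likeness of pattern was described by Pearson's correlation over the 9 arrays, among 6072 genes measured on all arrays with a mean above the detection limit. The genes most like eater were gas (0.99), CG3961 (0.98), the tubulin gene betaTub97EF (0.98), CG32687 (0.98) and HisT (0.97). Their means were lower after NELF dsRNA, by 0.52 in CG3961 and by 2.32 in CG32687 at the ends of their range on the log2 scale against LacZ dsRNA. The genes most like drpr were Agpat2, an acyltransferase gene of lipid synthesis (0.99), the glutamine synthetase gene Gs1 (0.99), mtDNA-helicase (0.98), Mec2 (0.98) and CG32425 (0.97), lower by between 0.33 and 0.91 on that scale. Between eater and drpr the coefficient was 0.86, which placed drpr at rank 233 for eater and eater at rank 221 for drpr. Both sets of 5 genes were picked by likeness to genes that fell, so their lower means follow from the choice and are no separate result. The fall of 2.32 in CG32687 rests on a NELF dsRNA mean of 3.13, below the detection limit. The coefficients mix the difference between groups with that between arrays of a group, and all values of an array share its hybridization.

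**Figure D5:**
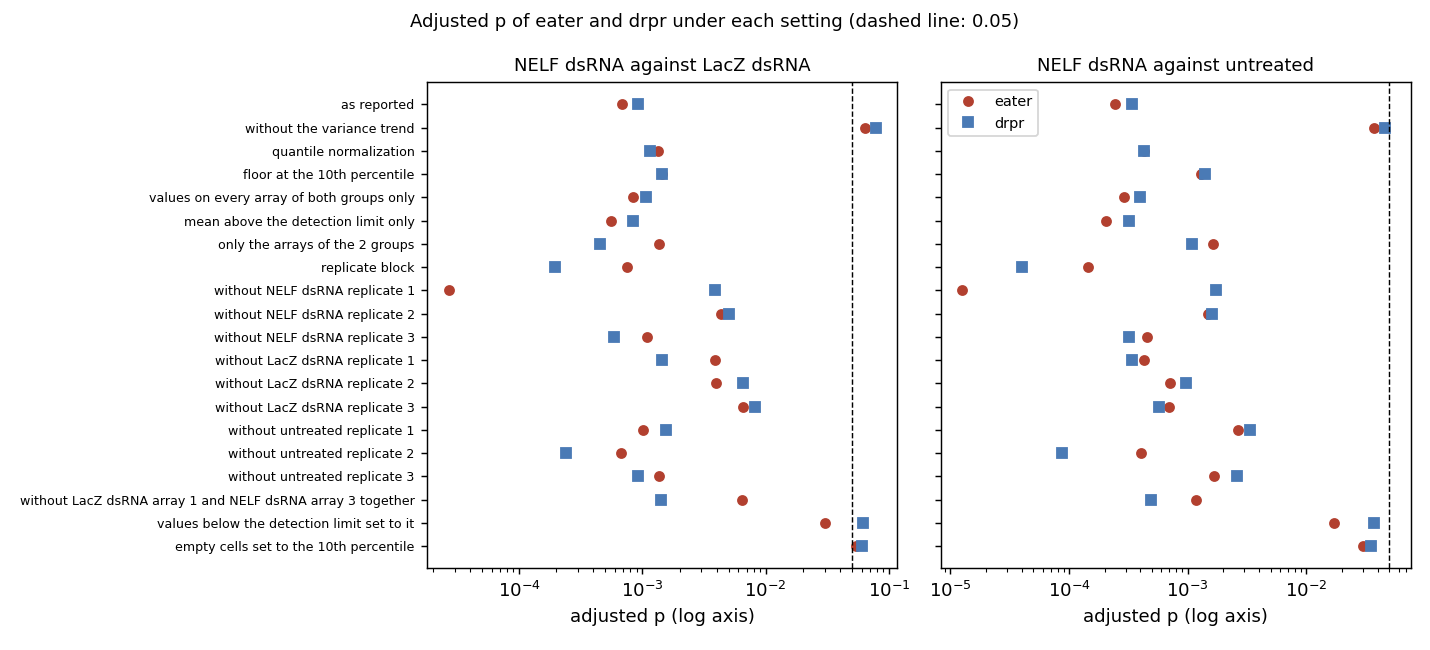
Adjusted p (horizontal, log axis) of eater and drpr in the 2 NELF dsRNA comparisons under each processing setting (vertical axis), with the threshold of 0.05 dashed. Against untreated cells every value lies below 0.05, while against LacZ dsRNA 2 settings put eater and 3 put drpr above it.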

How the data were processed

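The deposited table holds 1 log2 intensity per probe set and array, made by the authors. That the scale is log2 rests on its values alone (lowest -16.3, highest 13.6). Per the labels, 1 µg of total RNA was amplified by a one-cycle 3′ protocol, and each array took 10 µg of cRNA over 16 h. Scans passed through Affymetrix's GeneChip software 1.2.0.037 and then Rosetta Resolver 6.0, per the labels and the series' design text. How probes were summarized and normalized is not stated there. Over the 9266 probe sets without empty cells, array medians spanned 0.025, and the values were used as deposited.

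Of 17899 probe sets, 13086 had 1 gene in the platform annotation, 389 several and 4424 were unnamed here. The gene identifiers of 12988 matched RefSeq's gene table (used for symbols and neighbours). A gene with several probe sets was represented by the brightest. Limma 3.58.1 in R 4.3.3 (lmFit, eBayes with trend, 1 mean per group, all 9 arrays) tested probe sets with at least 2 values in both groups, and was tested on simulated data. The simulated spread followed the probe set mean alone, as the trend assumes. That check therefore cannot bear on the calls that were lost without the trend. P-values were adjusted over all probe sets. The labels name no batch that differs between arrays, so none was tested.

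The genes, lists and rule for naming were chosen with earlier results of these data known. The rule names all receptor genes above, up to 4 passing genes a list (otherwise the 2 brightest), the targeted genes and the 5 genes most correlated with eater and with drpr. Alternatives were the variance trend, quantile normalization, floors, filters, the 10th percentile in place of empty cells and lower values, the replicate block and leaving out arrays.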

Additional observations from a re-analysis of the deposited data

How the results depend on the processing

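The log2 changes of eater and drpr kept their sign in both NELF dsRNA comparisons under all alternatives run. Without the variance trend, probe sets called were 228 against LacZ dsRNA, 356 against untreated cells and 1 between LacZ dsRNA and untreated cells, against 592, 799 and 7. The number of receptor genes called against LacZ dsRNA was then 0, against 2, as it was with empty cells filled in, and to 1 with values below the detection limit set to it. The lost calls had unchanged log2 changes of -2.66 (eater) and -1.15 (drpr). The cause was not tested. Between LacZ dsRNA and untreated cells, 12 probe sets passed among those with a mean above the detection limit, 4 with values set to that limit and 22 with LacZ dsRNA array 1 and NELF dsRNA array 3 both left out. Leaving out 1 array in turn gave 2 (without LacZ dsRNA array 3) to 18 (without LacZ dsRNA array 1), and eater and drpr passed in both NELF dsRNA comparisons in all 9 such fits, with log2 changes against LacZ dsRNA of -3.21 to -2.15 and -1.30 to -0.96. The filled-in, limit-set and paired-array settings were chosen after seeing the data.

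With the replicate number as a block, 530 probe sets were called against LacZ dsRNA and 733 against untreated cells, and eater and drpr still passed (limma adjusted p = 0.000746 and 0.000197 against LacZ dsRNA). Deviations of same-numbered arrays correlated between -0.11 and 0.10, and those of differently numbered arrays between -0.15 and 0.19, so the numbers were not taken as pairs. Such correlations over many probe sets do not settle whether single genes vary with the number. With the 90th percentile of the controls as detection limit Sr-CI was above it on 2 arrays, not 1. The 99th percentile, 13.3, lies among the brightest probe sets and left no array above it. Dim signal limits what can be said of the Sr-C genes.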
